A study of Zea mays with 54 samples.

Results

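The 3 maize genes prp2, ccr2 and MFS18 are described here in the outermost layer (L1) and the underlying corpus (L2) of the vegetative shoot apical meristem. They were found as every probe whose single annotated gene, by symbol or synonym, is one of the 3, out of 866 genes named in this way. Together they have 10 of the 49280 probes on 3 designs of spotted cDNA array, and 7 of the 10 carried values. The genes were chosen by these measured L1 minus L2 values, so the values are a description and no test is drawn from them. That they belong to the cell wall is what is known of the genes and their relatives, and the array annotation gives names alone.

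The wall of a plant cell is a network of cellulose and other polysaccharides with structural proteins woven in, and in some cell types it is later stiffened by lignin. In the meristem the walls stay thin and extensible, and the outer wall of the L1 faces the outside of the plant and carries the cuticle. prp2 (LOC542195) takes its name from the proline-rich proteins, a family of structural wall proteins with repeated proline motifs that can be cross-linked into the wall. ccr2 (LOC542735, also called cncr2) encodes a cinnamoyl-CoA reductase, which reduces cinnamoyl-CoA esters to aldehydes at the entry of the branch that makes lignin precursors. MFS18 (LOC542405) was described from male flowers of maize, and its product is rich in proline, glycine and serine like some structural wall proteins.

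All samples came from the inbred line B73, with no mutant or treatment named, from seedlings 14 days old. Cells of the L1 and of the L2 were cut by laser from paraffin sections, and each biological replicate pooled 5 to 10 meristems, from which about 1 ng of RNA was amplified. The 2 groups of slides differ in the dyes: on odd slides L1 was labelled with Cy3 and L2 with Cy5, and on even slides L1 carried Cy5 and L2 Cy3. Each design was hybridised on 6 slides, 3 of each group, called the first design (slides 1 to 6), the second design (slides 7 to 12) and the third design (slides 13 to 18). A slide has 3 readings, lettered L, M and H without a stated meaning. Extract numbers recur from design to design, which means that the same plants can stand behind several designs, and the L2 number is the same for slides 1 and 2 and for slides 5 and 6. Nothing but these numbers separates the replicates in the labels, and any p-value below measures the spread between slides.

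The deposited values are log ratios between the dyes of a slide, and neither their base nor their numerator is stated in the labels. Differences are therefore in log units, L1 minus L2, and 1 unit is 2-fold in base 2 or 2.72-fold in base e. They say nothing of how abundant a transcript is. The direction is likely rather than stated: with Cy5 over Cy3, the outer cell layer gene ocl1 was at 1.00 and 0.90 on the first design, 0.93 on the second design and 1.00 on the third design, and the meristem homeobox gene kn1 was at -1.26, -0.72 and -0.37 on its 3 probes of the first design, -1.72 and -0.27 on the second, and -1.56, -0.26 and 0.02 on the third. The direction was read from these genes, so their order is not a result, and with Cy3 over Cy5 every sign here would turn. Slides of opposite orientation, before turning, correlated with a median r of 0.026, -0.164 and -0.162 on the 3 designs (9 pairs each), against 0.451, 0.269 and 0.271 for slides of like orientation (6 pairs each), which on the first design leaves the turning less clear than on the others. Readings of the same slide correlated with r from 0.783 to 0.894 on the first design, from 0.312 to 0.828 on the second design, with slide 11 at the bottom, and from 0.424 to 0.660 on the third design.

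prp2, the proline-rich protein gene, was higher in L1 on every slide that measured it. On the first design its probe 15672 read 0.75, 0.52 and 0.30 on the odd slides and 0.87, 0.62 and 1.05 on the even slides. All 6 values lie above 0, slide 5 is lowest and slide 6 is highest, and the orientation groups overlap. The fitted difference was 0.68 ± 0.088 (limma SE, n = 6; SD 0.265), which is 1.61-fold in base 2 or 1.98-fold in base e.

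On the second design prp2 has a pair of probes, 5710 and 9316, annotated to different sequence accessions. Probe 5710 read 0.97, 1.28 and 0.32 on the odd slides and 1.17, 1.21 and 1.18 on the even slides. The even slides lie within a narrow band, and slide 11 stands below the other 5. Its fitted difference was 1.02 ± 0.121 (SE, n = 6; SD 0.357), or 2.03-fold in base 2 and 2.78-fold in base e, and 1.15 without slide 11.

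The other prp2 probe of these slides, 9316, read 0.89, 0.52 and 0.46 on the odd slides and 0.33, 0.79 and 1.01 on the even slides. Here slide 8 is lowest and slide 12 highest, and slide 11 does not stand apart. The fitted difference was 0.67 ± 0.109 (SE, n = 6; SD 0.271), 1.59-fold in base 2 or 1.95-fold in base e. Probe 5710 lay above probe 9316 on 5 of 6 slides, by a mean of 0.35 (SD 0.389, from -0.13 to 0.84), a gap smaller than its own spread over slides. For the extract numbers 2, 3 and 4, shared by both designs, probe 15672 read 0.87, 0.52 and 0.62, probe 5710 read 1.17, 1.28 and 1.21, and probe 9316 read 0.33, 0.52 and 0.79. Probe 5710 was the highest of the 3 for each of these extracts, and 15672 and 9316 had no fixed order. Of the 3 prp2 probes, the fitted difference of 15672 on its own slides lay within 0.01 of that of 9316, but each design was fitted on its own and no test was made across designs.

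**Figure D1:**
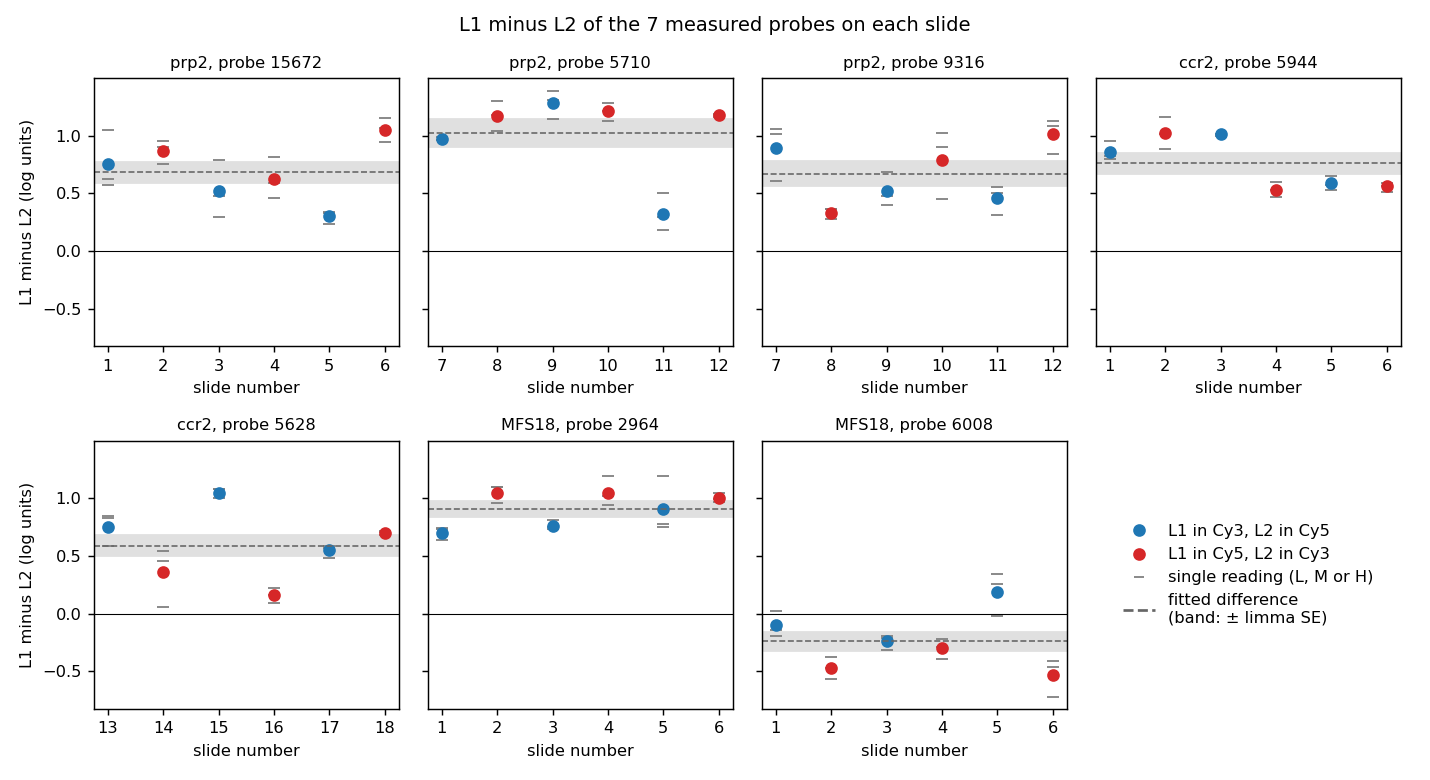
L1 minus L2 in log units (vertical axis) on each slide (horizontal axis) for the 7 measured probes of prp2, ccr2 and MFS18. Large points are slide means coloured by dye orientation, small dashes the 3 readings, and the dashed line and band the fitted difference ± its limma standard error. Probe 6008 of MFS18 is the only one with values below 0, on 5 of 6 slides, and slide 11 stands low for probe 5710 of prp2.

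The lignin branch gene ccr2 was measured by a probe of the same sequence accession on both designs that carry it, and was higher in L1 on every slide of both. On the first design probe 5944 read 0.86, 1.01 and 0.59 on the odd slides and 1.02, 0.53 and 0.56 on the even slides. The first 3 slides lie between 0.86 and 1.02 and the last 3 between 0.53 and 0.59, in both orientations. The fitted difference was 0.76 ± 0.092 (SE, n = 6; SD 0.227), 1.69-fold in base 2 or 2.14-fold in base e.

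On the third design the ccr2 probe 5628 read 0.75, 1.05 and 0.55 on the odd slides and 0.36, 0.16 and 0.70 on the even slides. Slide 16 comes nearest to 0 and slide 15 is highest. The fitted difference was 0.59 ± 0.092 (SE, n = 6; SD 0.317), or 1.51-fold in base 2 and 1.81-fold in base e. For the extract numbers that both designs share for both layers, ccr2 read 1.02 and 0.36 for number 2, 1.01 and 1.05 for number 3, and 0.53 and 0.16 for number 4, with the first design given first. Number 3 gave nearly the same value on both designs, and numbers 2 and 4 gave lower values on the third design.

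The male flower gene MFS18 gave a value of each sign. Probe 2964 on the first design read 0.70, 0.76 and 0.91 on the odd slides and 1.05, 1.05 and 1.00 on the even slides. Every odd slide lies below every even slide, and the spread within each orientation is small. The fitted difference was 0.91 ± 0.070 (SE, n = 6; SD 0.151), 1.88-fold in base 2 or 2.49-fold in base e. Its residual SD of 0.077 was among the smallest of the design, with 3.58% of probes below it.

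The second MFS18 probe on the same slides, 6008, read -0.10, -0.24 and 0.19 on the odd slides and -0.47, -0.30 and -0.53 on the even slides. It was above 0 on slide 5 alone, and again the orientation groups do not overlap, now with the even slides lower. The fitted difference was -0.24 ± 0.082 (SE, n = 6; SD 0.264). Probe 2964 lay above probe 6008 on 6 of 6 slides, by a mean of 1.16 (SD 0.363, from 0.71 to 1.53). The 2 probes share no sequence accession, and whether they detect the same transcript was not tested. The other 3 MFS18 probes, 12986, 13285 and 14035 on the second design, held no values, so the gene has values on 1 design.

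Across the 3 genes, 6 of the 7 measured probes gave a value above 0 on all 6 of their slides, 36 slide values from 0.16 to 1.28. Their 108 single readings were all above 0 too, from 0.06 to 1.39, but the readings of a slide are not separate replicates. With MFS18 probe 6008 included, 37 of 42 slide values and 111 of 126 readings were above 0. That probe had readings against the sign of their slide mean, 0.02 on slide 1 and -0.02 on slide 5. The share of all probes with every reading above 0 is not given here. The 6 differences had a median of 0.72 log units and ran from 0.59 (ccr2, probe 5628) to 1.02 (prp2, probe 5710). Of all probes, 3.25% on the first design, 3.59% on the second design and 4.49% on the third design were above 0 on 6 of 6 slides. Within the first design, where all 3 genes were measured, the order of the probes was MFS18 2964 (0.91), ccr2 5944 (0.76), prp2 15672 (0.68) and MFS18 6008 (-0.24), so that MFS18 is both first and last. MFS18 probe 2964 and ccr2 lie about 1 SD of that MFS18 probe apart, and ccr2 and prp2 lie closer together than the SD of either over slides.

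By limma with Benjamini-Hochberg adjustment over all probes of a design, at an adjusted p under 0.05, the calls were 3 of 4 member probes on the first design, 2 of 2 on the second design and 1 of 1 on the third design, all higher in L1. Of all probes, 2.84% (409 of 14401), 1.43% (129 of 8991) and 1.57% (224 of 14270) were called in either direction, with 1.5%, 0.89% and 1.02% higher in L1 and 1.34%, 0.545% and 0.554% higher in L2. The genes were chosen with these calls known, so nothing is read from the counts. The 3 calls on the first design were made with any 1 slide left out, but with slides 1 and 5 left out together, whose layers have different extract numbers, MFS18 probe 2964 alone was called, and the differences were then 0.68 for prp2, 0.85 for ccr2 and 0.90 for MFS18. Of all probes, 211 to 417 were called on the first design with 1 slide left out, and 78 without slides 1 and 5. The second design had 38 to 65 such calls with 1 slide left out, beside 129 with all slides. The third design had 88 to 121 without 1 of slides 13 to 17 and 231 without slide 18, beside 224. The member calls of these 2 designs changed too, while the values stayed close. prp2 probe 5710 was not called without slide 7 (0.99) or without slide 8, 10 or 12 (1.02 each). With 1 slide left out, probe 9316 was called only without slide 8 (0.76), and not without slide 7 (0.60), 9 (0.69), 10 (0.65), 11 (0.71) or 12 (0.59). In the same way the ccr2 probe 5628 was called only without slide 18 (0.52), and not without slide 13 (0.60), 14 (0.61), 15 (0.53), 16 (0.66) or 17 (0.65).

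**Figure D2:**
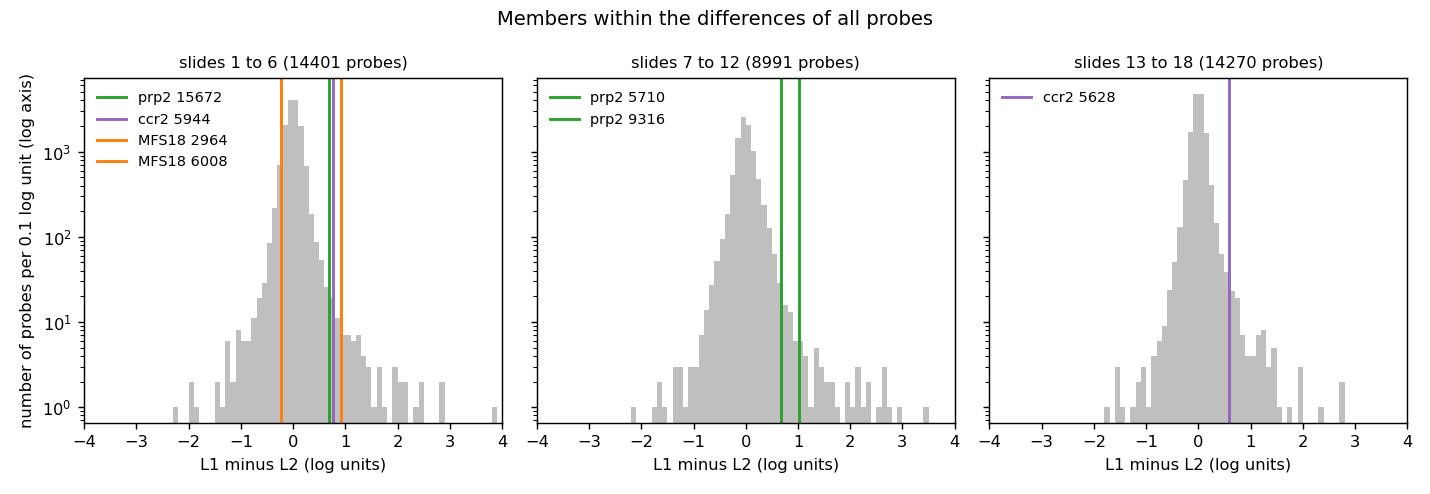
Number of probes (vertical log axis) by L1 minus L2 in log units (horizontal axis, bins of 0.1) for each design, with a coloured line at each measured probe of prp2, ccr2 and MFS18. The 6 lines between 0.59 and 1.02 lie in the upper tail, and the line of MFS18 probe 6008 lies at -0.24.

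The dye term of the same fit, which is Cy5 minus Cy3 and played no part in the choice of the genes, passed the threshold for 0 of the 7 probes. On the first design, 2.88% of all probes (415) had a called dye term, on the second design 0.0111% (1 probe), and on the third 0% (0 probes by limma, beside 951 at an unadjusted p under 0.05). At an unadjusted p under 0.05 the dye term of 1 member probe passed, MFS18 probe 6008 at -0.19 (adjusted p = 0.178, limma). That is 1 of 4 measured probes of the first design, where 25.2% of all probes passed in this way, and none of the member probes of the second and the third design did, where 8.04% and 6.66% of all probes passed. For the other 6 the dye term lay between -0.19 and 0.16, with adjusted p from 0.276 to 0.891 (limma). The dye term of prp2 was 0.16 on probe 15672 and 0.16 on probe 5710, of ccr2 -0.06 and -0.19, and of MFS18 probe 2964 0.12. These are smaller than the layer differences of the same probes, which were chosen for being large. For MFS18 probe 6008 the 2 lay close together, at -0.19 for dye and -0.24 for layer.

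Other genes of the cell wall were taken from 5 lists covering lignin and phenylpropanoid genes, structural wall proteins, cellulose and hemicellulose synthesis, wall loosening and class III peroxidases. Leaving out the 3 genes, they hold 89 probes of 23 genes with values, and limma called 0 of them at an adjusted p under 0.05, while 10 passed at an unadjusted p under 0.05 (5 of 47 on the first design, 3 of 11 on the second design and 2 of 31 on the third design). Of all probes, 14.8%, 13.8% and 12.9% passed at the same unadjusted threshold on the 3 designs. The medians of the list probes were 0.01, 0.02 and -0.01 on the 3 designs, beside 0.00, -0.02 and 0.00 for all probes, and their values ran from -0.36 to 0.52. On the second design no lignin or structural protein probe of the lists had values. There the median was 0.28 for 6 wall loosening probes, -0.02 for 4 cellulose and hemicellulose probes, and -0.11 for 1 peroxidase probe. All 6 called probes of prp2, ccr2 and MFS18 lie above the highest value of the lists, and they were chosen for being high.

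Among the lignin genes, the reductase cncr1 (CCR on the arrays, also known as ccr1) stood beside ccr2 on the same slides. On the first design cncr1 read -0.54, -0.46 and 0.21 on the odd slides and 0.43, 0.75 and -0.13 on the even slides, with a fitted difference of 0.05 ± 0.130 (adjusted p = 0.918, limma). On the third design it read -0.12, -0.17 and -0.10 on the odd slides and -0.15, -0.26 and 0.22 on the even slides, with a fitted difference of -0.10 ± 0.070 (adjusted p = 0.614, limma). The cncr1 values lie on both sides of 0 on the first design and below 0 on 5 of 6 slides on the third design. ccr2 lay above cncr1 on 5 of 6 slides of the first set, by 0.71 (SD 0.640), with slide 4 the exception, and on 6 of 6 slides of the last, by 0.69 (SD 0.308). This gap was not tested, since ccr2 was chosen for its L1 value.

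**Figure D3:**
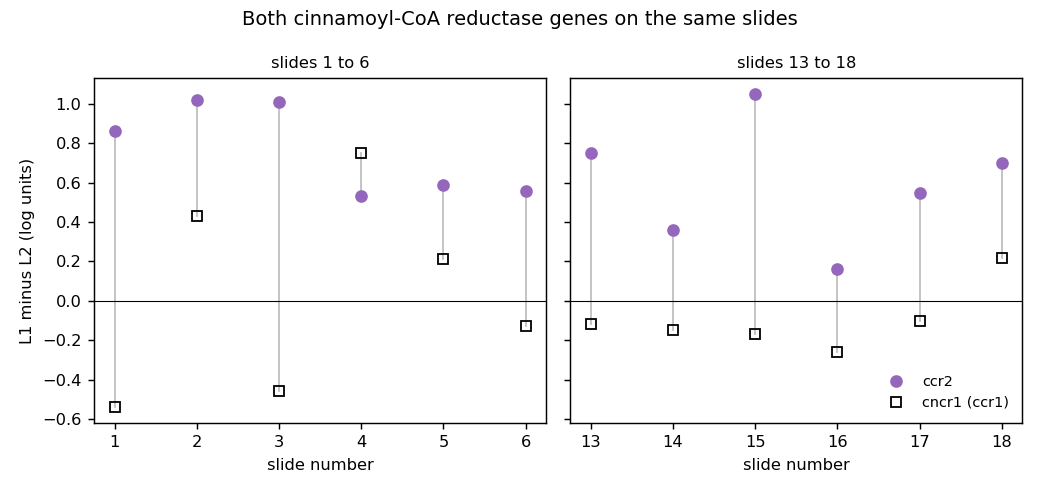
L1 minus L2 in log units (vertical axis) of ccr2 (filled points) and cncr1 (open squares) on each slide (horizontal axis) of the 2 designs that carry both, with a grey line joining the values of 1 slide. ccr2 lies above cncr1 on every slide but slide 4.

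The remaining lignin genes were near 0: PAL1, phenylalanine ammonia-lyase at the entry of the phenylpropanoid pathway, was at 0.21 ± 0.179 (adjusted p = 0.651, limma) and 0.06 on its 2 probes, and BM1, the brown midrib cinnamyl alcohol dehydrogenase that acts after the reductase, at -0.07. 4CL, which makes the CoA esters that the reductase uses, was between -0.04 and 0.03 on 3 probes. Of the structural proteins, the list beside prp2 and MFS18 comes down to 1 gene, HRGP, a hydroxyproline-rich extensin. Its 21 probes ran from -0.36 ± 0.094 (adjusted p = 0.151, limma) to 0.13, with medians of -0.01 on the first design and -0.01 on the third design.

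In the synthesis of cellulose, the catalytic subunits CesA-3, CesA-9 and CesA-8 held the probes with the largest values, -0.33, 0.32 and 0.28, all on the first design and none called. CesA-3 has 1 probe. The CesA-9 probe at 0.32 was above 0 on 3 of 6 slides, and the other 4 probes of CesA-9 lay between -0.19 and 0.02. The other 8 probes of CesA-8 lay between -0.05 and 0.19. Among loosening genes, EXPB1B (expb9), a beta-expansin of the group known from grass pollen, was at 0.52, 0.48, 0.22, 0.05 and -0.19 on its 5 probes of the second design and at 0.10 and -0.08 on the first. The pectin methylesterase gene pme1 (C5 on the arrays) was at 0.35 on 1 probe, and expB8 at 0.23 and 0.11 on a pair of probes. None of these was called. Of the class III peroxidases, a family of secreted enzymes of which some cross-link wall polymers, PER42 was at 0.33 ± 0.081 and above 0 on 6 of 6 slides on 1 of its 6 probes (adjusted p = 0.0664, limma), and between -0.11 and 0.03 on the other 5. That PER42 probe passed the threshold with the L reading alone (0.47, adjusted p = 0.0495, limma), with the median of the readings (0.41, adjusted p = 0.0351) and with shared L2 extract numbers as a random block (0.34, adjusted p = 0.037). The other peroxidase genes with the largest values were PER2, at 0.11, 0.06 and 0.03 on its 3 probes, and PER1, at -0.06 on 1 probe, none of them called.

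**Figure D4:**
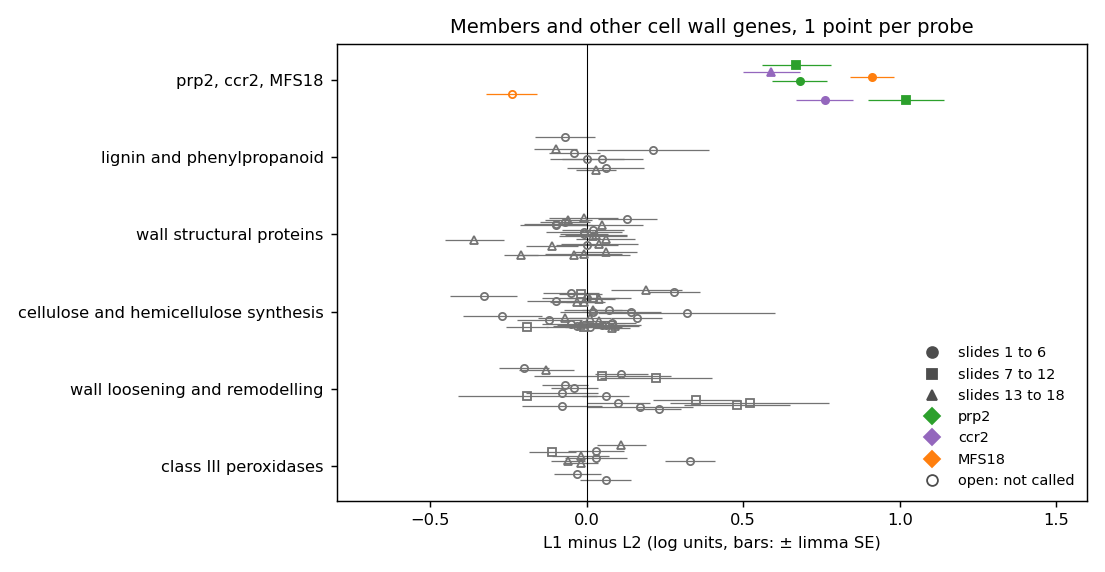
L1 minus L2 in log units (horizontal axis, bars ± limma standard error) of every measured probe of prp2, ccr2 and MFS18 (top, coloured) and of the 5 cell wall lists (grey). Marker shape gives the design, and filled markers are called. The list probes lie between -0.36 and 0.52, and 6 of 7 probes of the 3 genes lie between 0.59 and 1.02.

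Genes whose slide values were nearest to those of the 3 genes were ranked by the root mean square difference over the 6 slides of a design, among 477, 369 and 502 named genes, each member gene entering with its probe of largest difference and each other gene with its nearest probe, so that genes with many probes have more chances to come near. For MFS18 probe 2964 the nearest was the outer cell layer gene ocl1, 0.138 log units away, then EF1-A, translation elongation factor 1-alpha, at 0.216 and the small heat shock gene HSP18 at 0.325. The distance to ocl1 is below the SD of MFS18 over slides. For prp2 the nearest was also ocl1 on both designs, at 0.267 (probe 15672) and 0.328 (probe 5710), followed by H1 (0.271) and pdi (0.306) on the first design and by the homeobox genes knox8 (0.376) and ocl3 (0.393) on the second design. For ccr2 the nearest on both designs was EF1-A, at 0.295 on the first design and 0.127 on the third design. After it came pdi2 and H1 (0.297 each) on the first design and the desaturase gene FAD8 (0.143) and frk2 (0.18) on the third design. This measure weighs the mean difference and the slide pattern together, and the compared probes share slides and extracts. The 3 genes were chosen for being high in L1, so only genes also high in L1 could come near. The direction was itself read from ocl1, so nothing is read from its nearness.

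Markers of other cells were measured on the same slides. Of 4 to 6 measured probes of the epidermis list per design, 3 of 6, 3 of 5 and 2 of 4 were called, all of ocl genes and all higher in L1. Those not called were ocl2 (0), ocl4 probe 12184 (0.18) and gl8 (0.52) on the first design. On the second design they were ocl3 probe 3789 (-0.15) and cr4 (0.14), and on the third gl8 (0.35) and cr4 (-0.11). Of the corpus probes, 3 of 4, 1 of 3 and 1 of 5 were called, all of them kn1 and all higher in L2. The other corpus gene with values, lg3, lay between -0.14 and -0.01, with no probe called. The direction was read from ocl1 and kn1, so their part of these counts is not a result. Genes of young leaves were measured as well: of the leaf primordium list, 2 of 7, 2 of 6 and 2 of 11 probes were called, all higher in L1, over a range of -0.36 to 0.66, -0.20 to 2.12 and -0.32 to 1.94. The highest was yabby15 (2.12), a YABBY gene, and rs2, a leaf primordium MYB gene, was below 0 on all designs (-0.36, -0.20 and -0.32, none called). The part of leaf primordium cells in the values of prp2, ccr2 and MFS18 was not tested. The sucrose transporter sut1, the vascular gene with values, was at 0.00 to 0.05 on 3 probes of the third design, with none called. A ratio between pooled cells does not tell fewer cells of a type from less RNA per cell.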

How the data were processed

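The deposited values were log ratios between Cy5 and Cy3 for each reading of a slide (held as a score here, since no label states the log base, the numerator or the normalisation). They ran from -7.77 to 8.37, with medians per column from -0.0773 to 0.0597. All 54 columns were used. The L, M and H readings of a slide were averaged, the slide being the replicate, and values were multiplied by -1 where L1 carried Cy3. For each design on its own, limma 3.58.1 (R 4.3.3) fitted a layer and a dye term with lmFit and eBayes to probes with values on at least 4 slides, 2 per orientation. P-values were two-sided and adjusted (Benjamini-Hochberg) within a design, and calls were made under 0.05. The number of arrays limits the precision. The fit was tested on simulated data.

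Gene names came from the array annotation, matched by gene number to RefSeq (assembly Zm-B73-REFERENCE-NAM-5.0) for names alone: 1488, 849 and 1100 probes of the 3 designs had a single gene found there, and probes with several genes (23, 0 and 1) were left unnamed. Whether probes of gene families also detect close relatives was not tested.

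The members and lists were chosen with earlier results of these data known, and cncr1, 4cl, bk2l3, pme1, pg2c and per42 were added to the lists from the names on the arrays. Named were all member probes, from each wall list any called gene and up to 3 with the largest differences, and for each member and design the 3 genes nearest by slide values. Other probes of the same wall genes are given beside them, singly or as a range, and 4CL was named after its values were seen. Alternatives covered single readings, their median, centring, scaling, leaving out slides, the dye term, turning, robust eBayes and shared L2 numbers as a block. Python 3.11.15 with matplotlib 3.10.9 drew the figures.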

Additional observations from a re-analysis of the deposited data

Results flagged for a closer look

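For prp2 probe 5710, slide 11 (0.32) stood apart from the other 5 slides of its design (0.97 to 1.28). The gap to the next slide was 0.675 of the whole range, above the critical value of 0.625 for 6 slides. Chance flags about 1 in 20 groups, and 7 probes were examined. The 3 readings of slide 11 correlated with r of 0.312 to 0.374, the lowest of the 18 slides, and the second prp2 probe of that slide, 9316, read 0.46 within a range of 0.33 to 1.01. The part of slide 11's reading quality in the low value was not tested.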

How the results depend on the processing

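Of 109 recomputed member differences, 103 kept their sign and stayed within 1 SD over slides of the reported value. The 6 others all came from values not turned by dye, which exchanges the layer and dye terms. They were 0.16 (15672), 0.16 (5710) and 0.04 (9316) for prp2, -0.06 (5944) and -0.19 (5628) for ccr2, both reversed, and 0.12 for MFS18 (2964). The unturned value of MFS18 probe 6008 (-0.19) is counted among the 103, although it is the dye term of that probe. Many of the 103 could hardly have come out otherwise. With 3 slides of each orientation the layer term alone gives the same value again, and 1 slide left out can move it little. A median over slides always lies within 1 SD of the mean. The count is therefore no measure of robustness. The dye terms passed the threshold in 0 of 99 settings, which fit the same 7 probes again. Of all probes, 415 on the first design, 1 on the second and 0 on the third passed it in the main fit. Member calls on slides 1 to 6 were 1 without slides 1 and 5 and 0 unturned. On slides 7 to 12 they were 1 with the L, M or H reading alone or slides brought to one spread, 0 unturned, and 0 to 1 leaving out a slide; on slides 13 to 18 they were 0 with the L reading alone or unturned, and 0 to 1 leaving out a slide. Wall list calls on slides 1 to 6 were 1 with the L reading, the median of readings or the L2 block (PER42 each time) and 2 unturned (CesA-8 at -0.37 and EXPB1B at 0.70). All-probe calls on slides 1 to 6 were 261 with the L reading, 258 with the layer term alone, 78 without slides 1 and 5, 2133 at unadjusted p (a setting added after seeing the data) and 211 to 417 leaving out a slide. On slides 7 to 12 they were 82 (L), 76 (H), 77 (one spread), 1 (unturned), 1245 (unadjusted) and 38 to 65 leaving out a slide, and on slides 13 to 18, 79 (L), 0 (unturned), 1834 (unadjusted) and 88 to 231. The cause of these shifts was not tested, except that leaving out slides leaves fewer samples. Each value pairs L1 with L2 within a slide, though on slides 1 and 5 the layers have different extract numbers. The slides that share an L2 number were also fitted with it as a random block, which called 577 probes and 3 member probes on slides 1 to 6. The correlation fitted within a block was below 0 (-0.207). This fit called more probes than the main fit (409), so it was no stricter. Depth does not apply, and signal over background was not analysed here, so how far dim spots limit the values is unknown.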
